A study of Mus musculus with 14 samples.

Results

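The genes described here are 33 mouse genes of glucose uptake, glycolysis, lactate handling, pyruvate entry into mitochondria and glycogen turnover. They were chosen by symbol from the table of raw counts per gene, which lists 54532 gene IDs, and all 33 were among the 15876 genes with enough counts to be tested. A second gene ID that also carries the symbol Aldoa had too few counts and was left out. RNA with poly(A) tails was sequenced from ventricles collected 1 week after surgery. The surgery was transverse aortic constriction (TAC), in which a tie narrows the aortic arch and raises the load on the left ventricle, or a sham procedure that leaves the aorta open. The groups were CCL24 KO with TAC (n = 4), CCL24 KO with sham surgery (n = 2), wild type with TAC (n = 6) and wild type with sham surgery (n = 2), called knockout TAC, knockout sham, wild type TAC and wild type sham hearts below. The knockout mice lack Ccl24, the gene of a chemokine, and the labels give no age, sex, strain background or construction of the allele. The sham groups are small, and each library was taken as 1 mouse because the libraries in each group equalled the animals stated for it.

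The adult heart runs mainly on fatty acids and lactate, and takes up glucose through GLUT4 and, in smaller part, GLUT1. Hexokinase traps the sugar, phosphofructokinase sets the pace of glycolysis, and the pyruvate formed is either reduced to lactate or imported into mitochondria for oxidation by pyruvate dehydrogenase. Several of these steps have a form typical of striated muscle and a form found in many other cells, and the fetal and the pressure-overloaded heart are known for a greater reliance on glucose.

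Total counts were 17072262 to 33123052 per library. Ccl24 had 3 to 8 counts in the 6 knockout libraries, against 56 to 105 in 7 of the 8 wild type libraries. The library labelled WT (wild type) TAC replicate 1 had 3 counts of Ccl24, which goes against its label. The changes of the genes called, the main isoform differences and some wild type TAC ranges are therefore also given without this library. The other wild type TAC ranges, and the wild type fold changes of Nppb and Acta1, include it. Nppb and Acta1, markers of cardiac load, were higher after TAC in both genotypes, with log2 fold changes of 1.499 (SE 0.28, adjusted p = 0.0106) and 1.77 (SE 0.26, adjusted p = 0.0033) in the knockout, and of 1.15 (SE 0.26, adjusted p = 0.017) and 1.13 (SE 0.24, adjusted p = 0.014) in wild type, by the quasi-likelihood test of edgeR. All 8 cardiomyocyte markers checked were detected in every library. In bulk tissue, fewer cells of a type and less RNA per cell cannot be told apart. Nothing says whether the counting used strand, so reads of genes that overlap on opposite strands cannot be told apart either.

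Of the 33 genes, 32 (all but Slc2a4) had a promoter in the RefSeq table used (GRCm38.p6, 51 windows reaching from 250 bases before to 50 after a transcript's start), and 17 held the letters ACGTG on either strand. ACGTG is the core of the element bound by hypoxia-inducible factor. It occurred in 39.2% of these 51 windows and in 19.6% of all 32851 windows, while the median GC content was 60.7% in these windows and 52.7% in all. CACGTG, the E-box, which holds ACGTG on both strands, occurred in 9.8% of these windows and 7.15% of all, and the MEF2 motif in 3.92% of these and 3.19% of all, both on either strand. Such a match is a description of letters and not of a bound site. The windows of a pair of genes that rose after TAC (Ldha, chr7:46845554-46845853, plus strand, and Slc16a3, chr11:120948817-120949116, plus strand) and of a pair that fell (Hk2, chr6:82774405-82774704, minus strand, and Pygm, chr19:6384158-6384457, plus strand) are shown because both directions include promoters with ACGTG, marked in capitals as ACGTG or, on the opposite strand, CACGT.
Ldha: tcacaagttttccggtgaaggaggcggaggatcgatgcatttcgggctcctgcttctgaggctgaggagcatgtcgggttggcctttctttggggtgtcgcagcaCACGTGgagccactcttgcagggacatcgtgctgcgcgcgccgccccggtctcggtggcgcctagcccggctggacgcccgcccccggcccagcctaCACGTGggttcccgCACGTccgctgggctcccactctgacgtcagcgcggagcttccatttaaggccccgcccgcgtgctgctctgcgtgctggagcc
Slc16a3: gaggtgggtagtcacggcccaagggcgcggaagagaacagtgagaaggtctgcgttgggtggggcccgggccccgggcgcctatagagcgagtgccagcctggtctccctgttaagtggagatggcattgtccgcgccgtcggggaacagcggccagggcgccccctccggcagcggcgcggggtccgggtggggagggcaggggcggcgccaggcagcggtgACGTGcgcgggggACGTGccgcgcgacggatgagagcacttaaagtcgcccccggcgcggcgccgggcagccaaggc
Hk2: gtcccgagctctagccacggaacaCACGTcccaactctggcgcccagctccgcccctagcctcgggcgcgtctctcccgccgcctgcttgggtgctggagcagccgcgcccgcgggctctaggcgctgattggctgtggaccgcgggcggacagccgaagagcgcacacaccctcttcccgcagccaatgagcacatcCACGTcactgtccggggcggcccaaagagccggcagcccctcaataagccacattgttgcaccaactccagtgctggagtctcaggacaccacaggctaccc
Pygm: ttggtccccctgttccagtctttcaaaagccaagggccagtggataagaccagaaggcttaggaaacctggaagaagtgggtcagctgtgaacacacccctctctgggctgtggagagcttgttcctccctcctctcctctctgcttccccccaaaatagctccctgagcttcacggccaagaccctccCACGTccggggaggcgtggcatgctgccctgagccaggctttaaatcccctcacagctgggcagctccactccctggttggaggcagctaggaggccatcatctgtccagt
Ldha held 5 matches, counted on both strands, including 2 E-boxes, which count once on each strand. Slc16a3 and Hk2 held 2 matches each and Pygm held 1. Of the other genes with a change after TAC, Pfkm, Pdk2 and Slc16a1, which fell, also held ACGTG in a window, and Pfkp and Eno1, which rose, and Pfkfb1, Pdha1 and Pdk1, which fell, held none in these windows.

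Per kilobase of exon, the most abundant of the 33 mRNAs over the 14 libraries was Aldoa, the muscle aldolase, at 1185 ± 105 CPM per kb (SD, n = 14; CPM is the count of a gene relative to the scaled total of its library). It was followed by Ldhb, the heart form of lactate dehydrogenase, at 1033 ± 174 CPM per kb, Eno3, the muscle enolase, at 951 ± 137, and Pgam2, the muscle phosphoglycerate mutase, at 944 ± 163. These 4 lay within each other's spread or close to it, and the next gene, Pygm, the muscle glycogen phosphorylase, stood well below them at 333 ± 54.2 CPM per kb. At the low end were Pfkfb1 at 2.90 ± 2.26 and Slc16a3, the lactate exporter MCT4, at 1.03 ± 0.64 CPM per kb. Gapdh, at 19.8 ± 2.38 CPM per kb, ranked 27, but it has many near-identical copies in the genome and how reads that fit several places were treated is not known here, so its level is uncertain. For the same reason Eno1 and Mpc1 are uncertain, since Eno1b and Mpc1-ps drew 38.9% and 54.2% as many counts as they did. The copies of other members that are named after them drew under 1% as many (0.722% at most), and adding the copies to their members changed no call.

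Within families, the form typical of muscle made up nearly all of the summed level per kb at several steps. Pgam2 made up 97.8% ± 0.516 of both mutases in knockout TAC hearts (SD, n = 4), 97.8% ± 0.613 in knockout sham hearts (n = 2), 96.7% ± 0.754 in wild type TAC hearts (n = 6) and 97.2% ± 0.0818 in wild type sham hearts (n = 2). Slc2a4 made up 94.9% ± 1.13 of the 2 glucose carriers in knockout TAC hearts, 96.8% ± 0.077 in knockout sham hearts, 93.1% ± 3.62 in wild type TAC hearts and 96.5% ± 0.206 in wild type sham hearts. The hexokinases were more even, with Hk2 at 57.6% ± 2.59 in knockout TAC hearts, 63.5% ± 1.88 in knockout sham hearts, 53.9% ± 6.04 in wild type TAC hearts and 64.9% ± 0.15 in wild type sham hearts. Without the library labelled WT TAC replicate 1, the wild type TAC share was 96.5% ± 0.732 for Pgam2, 92.6% ± 3.78 for Slc2a4 and 52.4% ± 5.39 for Hk2 (n = 5). The 33 genes together took 1.86% ± 0.128 of all counts in knockout TAC hearts, 1.87% ± 0.0592 in knockout sham hearts, 1.88% ± 0.0626 in wild type TAC hearts and 1.92% ± 0.0118 in wild type sham hearts, so the groups overlapped in this total.

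The mRNAs of several steps of glucose use were lower after TAC and a few were higher. Averaged over both genotypes, 9 of the 33 genes were lower after TAC and 4 were higher, while 20 did not pass, at an adjusted p of 0.05 over all genes tested (edgeR quasi-likelihood test with Benjamini-Hochberg adjustment). The lower genes were the glucose carrier Slc2a4, the hexokinase Hk2, the phosphofructokinase Pfkm, the bifunctional Pfkfb1, the lactate carrier Slc16a1, the pyruvate dehydrogenase subunit Pdha1, the kinases Pdk1 and Pdk2, and the glycogen phosphorylase Pygm. The higher genes were Pfkp, Eno1, Ldha and Slc16a3. Over all genes tested, 11.6% were called lower and 12.7% higher, against 27.3% and 12.1% of the 33. The 33 genes were chosen with earlier results of these data known, so the larger share of lower genes is not a test of the pathway. The median log2 fold change was -0.07 over the 33 genes and -0.002 over all genes.

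Taken in each genotype alone, fewer genes passed. In the knockout, 0 of the 33 passed by edgeR, where 2.36% of all genes were called higher and 1.73% lower. An unadjusted p under 0.05 was found for 11 of the 33 and for 20.8% of all genes. DESeq2 called 5 of the 33 and 8.45% of all genes in the knockout, and limma voom 9 of the 33 and 12% of all genes. In wild type, 5 fell and 0 rose (Slc2a4, Hk2, Pfkfb1, Slc16a1 and Pdk2), where 6.36% of all genes were called higher and 5.8% lower. Pfkfb1 was at -1.58 in wild type (SE 0.42, adjusted p = 0.0343), and the other 4 were at -0.44 to -0.50. Without the library labelled WT TAC replicate 1 they were at -0.55 for Slc2a4, -0.55 for Hk2, -1.73 for Pfkfb1, -0.53 for Slc16a1 and -0.48 for Pdk2. In that fit 7 genes fell and 1 rose, Pfkp (0.95, SE 0.29, adjusted p = 0.0424, edgeR). Without wild type TAC replicate 2, 9 fell and 2 rose. The wild type count was 0 without either wild type sham library, where 0.0242% of all genes or fewer were called, and 3, 8, 8, 9 and 11 without wild type TAC replicate 4, the library labelled WT TAC replicate 1, wild type TAC replicate 7, knockout TAC replicate 1 and wild type TAC replicate 2, where 7.93%, 17.4%, 12.6%, 12.9% and 15.9% of all genes were called. In the knockout the 5 had log2 fold changes of -1.51 for Pfkfb1 (adjusted p = 0.0755) and of -0.49 to -0.15 for the others, and 2, 3 and 4 genes of the 33 passed without wild type TAC replicate 2, knockout TAC replicate 1 and wild type TAC replicate 7, where 4.95%, 4.0% and 8.61% of all genes passed. No difference in response between the genotypes was detectable for the 33 genes. The genotype by surgery interaction called 0 of them by edgeR, as it called 0% of all genes in each direction, and 0 of the 33 had an unadjusted p under 0.05. DESeq2 and limma voom also called 0 of the 33 for the interaction. The 13 calls of the averaged comparison became 4 without knockout sham replicate 1 and 7 without either wild type sham library, where the share of all genes called was 8.64%, 12.1% and 11% in place of 24.2%. The 4 higher genes did not pass in any fit without 1 of the 4 sham libraries. Slc2a4, Hk2, Pfkfb1 and Pdk2 passed in all 14 fits that left out 1 library, and without the library labelled WT TAC replicate 1 the count was 14, with Ldhb added among the lower genes and 27.6% of all genes called. Without that library the averaged changes of the other 13 were -0.48 for Slc2a4, -0.43 for Hk2, -0.44 for Pfkm, 0.90 for Pfkp, -1.62 for Pfkfb1, 0.28 for Eno1, 0.26 for Ldha, -0.34 for Slc16a1, 1.07 for Slc16a3, -0.40 for Pdha1, -0.32 for Pdk1, -0.48 for Pdk2 and -0.41 for Pygm, with adjusted p-values of 0.00114 to 0.0443 (edgeR).

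**Figure D1:**
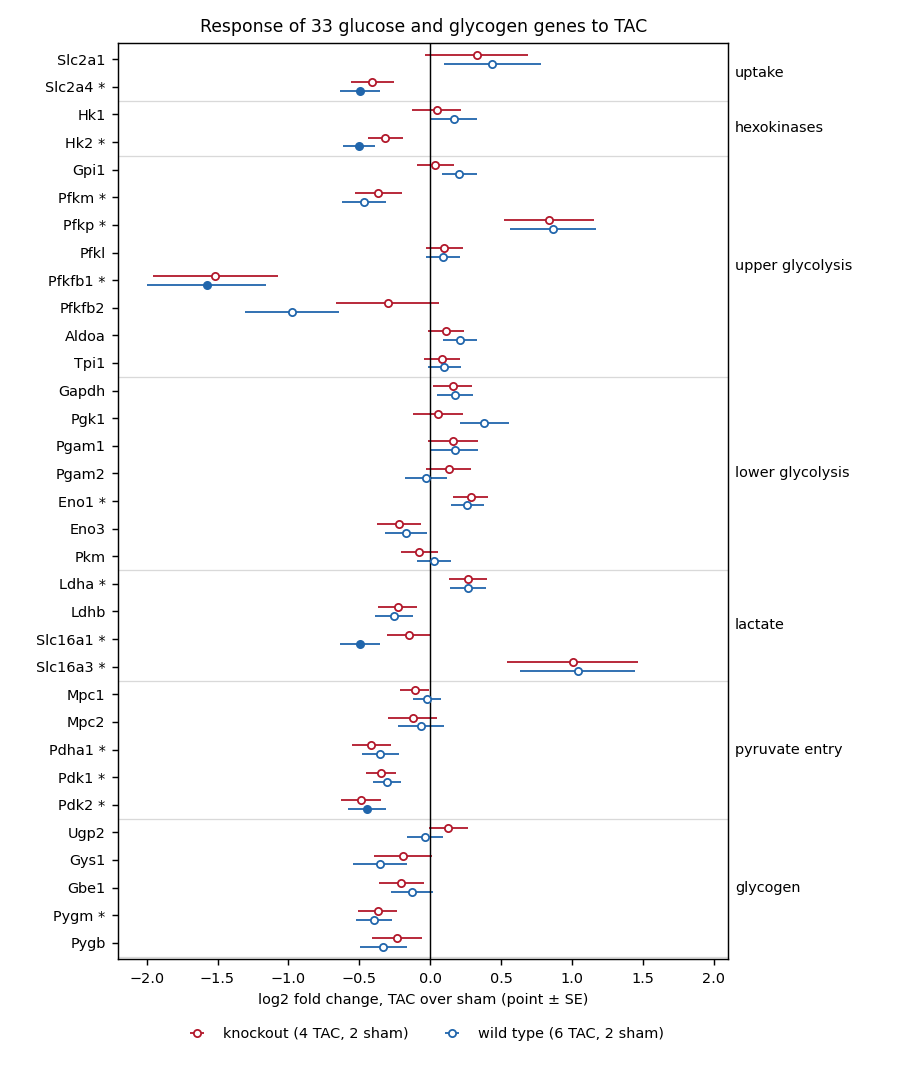
Log2 fold change of TAC over sham for each of the 33 genes, grouped by role (horizontal axis, log2 scale; point ± SE; knockout above wild type for each gene). Filled points passed an adjusted p of 0.05 in that genotype and asterisks mark the 13 genes that passed in the averaged comparison; Pfkfb1 lies far to the left near -1.5 in both genotypes, and Pfkp and Slc16a3 to the right.

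Glucose uptake. Slc2a4 (chromosome 11, 69942539 to 69948188, GRCm38, minus strand), which encodes GLUT4, the insulin-regulated carrier, held 379, 319, 326 and 294 CPM in knockout TAC hearts, against 446 and 430.1 CPM in knockout sham hearts. In wild type TAC hearts it held 240.0 to 384 CPM (median 338), against 465 and 461 CPM in wild type sham hearts. Every TAC library lay below every sham library of its genotype, and the averaged log2 fold change was -0.45 (SE 0.10, adjusted p = 0.00611), 0.73 times the sham level. Such separation, here and below, was common with so few sham libraries. In wild type Aldoa, Gpi1, Pgk1, Gys1 and Pygb were also separate and did not pass. Many of the 33 genes were likewise separate between the genotypes after sham surgery, where 0 passed. The share of all genes with separate ranges was not computed. Slc2a1, the GLUT1 carrier of most cell types, held 26.9, 18.4, 15.8 and 12.3 CPM in knockout TAC hearts, against 14.7 CPM in both knockout sham hearts. Its wild type TAC values were 13.9 to 38.6 CPM (median 22.7), against 17.9 and 16.2 CPM in wild type sham hearts. The groups overlapped, and the difference of 0.38 (SE 0.25) did not pass (adjusted p = 0.283).

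Hexokinases phosphorylate glucose as it enters the cell. Hk2, the insulin-responsive form of muscle, held 273, 233, 229 and 208 CPM in knockout TAC hearts, against 303 and 284 CPM in knockout sham hearts. It held 203 to 269 CPM (median 226) in wild type TAC hearts, against 327 CPM in both wild type sham hearts. No TAC library reached the sham range of its genotype, and Hk2 fell by 0.41 on the log2 scale on average (SE 0.08, adjusted p = 0.00311). Hk1, the broadly expressed form, held 206 to 311 CPM in knockout TAC hearts, against 221 and 264 CPM in knockout sham hearts, and 240.5 to 361 CPM (median 278) in wild type TAC hearts, against 252 and 254 CPM in wild type sham hearts. Its change of 0.11 (SE 0.12) did not pass (adjusted p = 0.534).

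In upper glycolysis, 1 of 8 genes rose and 2 fell in the averaged comparison. Of all genes tested, 12.7% were called higher and 11.6% lower. Pfkm, the muscle phosphofructokinase, held 912.5, 731, 820.3 and 789 CPM in knockout TAC hearts, against 1109 and 986 CPM in knockout sham hearts. In wild type TAC hearts it held 592 to 964 CPM (median 786), against 1095 and 1075 CPM in wild type sham hearts. The ranges did not overlap in either genotype and the averaged change was -0.42 (SE 0.11, adjusted p = 0.015), which no longer passed without knockout sham replicate 1 (-0.37) or without either wild type sham library (-0.41 and -0.42). Pfkp, the platelet form, moved the other way. It held 143, 139, 91.5 and 102 CPM in knockout TAC hearts, against 66.4 and 66.5 CPM in knockout sham hearts. Wild type TAC hearts held 102 to 247 CPM (median 159), against 94.2 and 83.7 CPM in wild type sham hearts. All TAC libraries were above the sham libraries of their genotype, and the averaged change was 0.85 (SE 0.22, adjusted p = 0.0155), a level 1.80 times that of sham hearts, which no longer passed without any one of the 4 sham libraries (0.81 to 0.90). Pfkl, the liver form, changed by 0.09 (SE 0.09) and did not pass (adjusted p = 0.455).

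The bifunctional enzymes Pfkfb1 and Pfkfb2 make and break down fructose 2,6-bisphosphate, the activator of phosphofructokinase; Pfkfb2 is the form known from heart. Pfkfb1 (chromosome X, 150588229 to 150643878, GRCm38, plus strand) showed the largest change of the 33 genes in the averaged comparison. Its level was 7.18, 10.1, 13.5 and 11.8 CPM in knockout TAC hearts, against 32.55 and 28.2 CPM in knockout sham hearts. In wild type TAC hearts it was 1.95 to 9.26 CPM (median 3.87), against 16.6 and 12.98 CPM in wild type sham hearts. All TAC libraries were below the sham libraries of their genotype, and the averaged change was -1.55 (SE 0.31, adjusted p = 0.00435), 0.342 times the sham level. Pfkfb2 held 19.9, 34.9, 48.3 and 49.4 CPM in knockout TAC hearts, against 47.3 and 46.5 CPM in knockout sham hearts, and 15.9 to 35.8 CPM (median 24.9) in wild type TAC hearts, against 45.5 and 54.4 CPM in wild type sham hearts. Its groups overlapped in the knockout but not in wild type, and its averaged change of -0.64 (SE 0.25) did not pass (adjusted p = 0.0796). Gpi1, the isomerase before phosphofructokinase, Aldoa and Tpi1, the triose phosphate isomerase after it, changed by 0.12, 0.16 and 0.09 and did not pass.

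In lower glycolysis, where each triose yields its ATP, 1 of 7 genes rose, while 12.7% of all genes were called higher. Eno1, the enolase of most tissues, held 143, 143, 116 and 128 CPM in knockout TAC hearts, against 105 and 112 CPM in knockout sham hearts. Wild type TAC hearts held 114 to 162 CPM (median 136), against 115 and 112 CPM in wild type sham hearts. Groups were separate in the knockout and overlapped at 1 library in wild type, and the averaged change was 0.27 (SE 0.09, adjusted p = 0.0307), a call lost without any single sham library (0.26 to 0.30) or without knockout TAC replicate 2 (0.25). Eno3, its muscle counterpart, held 1516 to 1928 CPM in knockout TAC hearts, against 1902 and 2034 CPM in knockout sham hearts, and 1239 to 1853 CPM (median 1411) in wild type TAC hearts, against 1653 and 1744 CPM in wild type sham hearts. Its change of -0.20 (SE 0.11) did not pass (adjusted p = 0.198). The other members were between -0.02 and 0.22 on average and did not pass: Pkm, pyruvate kinase, at -0.02 (SE 0.09), Pgam2 at 0.05 (SE 0.11), Pgam1 at 0.17 (SE 0.12), Gapdh at 0.17 (SE 0.09) and Pgk1, phosphoglycerate kinase, at 0.22 (SE 0.12).

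Lactate genes moved in both directions. Ldha, the lactate dehydrogenase subunit of fast muscle and many other tissues, held 1013, 944, 755 and 832 CPM in knockout TAC hearts, against 715 and 757 CPM in knockout sham hearts. In wild type TAC hearts it held 810.5 to 1036 CPM (median 895), against 741 and 759.9 CPM in wild type sham hearts. The wild type groups were separate and the knockout groups overlapped at 1 library. The averaged change was 0.27 (SE 0.09, adjusted p = 0.0452), close to the threshold, and it no longer passed in 9 of the 14 fits that left out 1 library (0.23 to 0.29 over those 9 fits). These were the fits without any one of the 4 sham libraries, without knockout TAC replicates 1, 2 or 5 and without wild type TAC replicates 3 or 4. Ldhb, the heart subunit, held 1809, 1576, 1862 and 1707 CPM in knockout TAC hearts, against 1926 and 2154 CPM in knockout sham hearts. It held 1203 to 1638 CPM (median 1352) in wild type TAC hearts, against 1649 and 1675 CPM in wild type sham hearts. The ranges were separate in both genotypes, but the change of -0.24 (SE 0.10) did not pass (adjusted p = 0.0747), and it passed without the library labelled WT TAC replicate 1 (-0.27, SE 0.09, adjusted p = 0.0306) and without wild type TAC replicate 2.

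Of the carriers that move lactate across the cell membrane, the main one of cardiomyocytes fell and the scarce one rose. Slc16a1, which encodes MCT1, held 308.5, 229.6, 232.0 and 231 CPM in knockout TAC hearts, against 298.5 and 257 CPM in knockout sham hearts. It held 206 to 284 CPM (median 263) in wild type TAC hearts, against 368 and 333 CPM in wild type sham hearts. Groups overlapped in the knockout through replicate 1 and were separate in wild type, with an averaged change of -0.32 (SE 0.10, adjusted p = 0.0352). This call was lost without knockout sham replicate 1 (-0.26), without any of knockout TAC replicates 2, 4 or 5, and without either wild type sham library. Slc16a3, which encodes MCT4, a lactate exporter of glycolytic cells, held 4.62, 5.52, 2.65 and 3.67 CPM in knockout TAC hearts, against 2.41 and 1.71 CPM in knockout sham hearts. Wild type TAC hearts held 4.26 to 15.1 CPM (median 7.49), against 3.75 and 4.11 CPM in wild type sham hearts. TAC libraries were above the sham libraries of their genotype throughout, and the averaged change was 1.02 (SE 0.31, adjusted p = 0.0278), a level 2.03 times that of sham hearts, which was lost without any single sham library (0.91 to 1.16) or without knockout TAC replicate 2 (0.92).

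Genes of pyruvate entry fell or did not pass. Pdha1, the catalytic subunit of pyruvate dehydrogenase, held 972, 730.0, 773 and 709.5 CPM in knockout TAC hearts, against 1169 and 955 CPM in knockout sham hearts. It held 696 to 885 CPM (median 822) in wild type TAC hearts, against 1018 and 1038 CPM in wild type sham hearts. The overlap was 1 library in the knockout, and the averaged change was -0.38 (SE 0.10, adjusted p = 0.00978). Of the kinases that switch this enzyme off, the members Pdk1 and Pdk2 fell as well. Pdk2 held 419, 347, 386 and 348 CPM in knockout TAC hearts, against 546 and 505 CPM in knockout sham hearts, and 284 to 409 CPM (median 362) in wild type TAC hearts, against 473 and 481 CPM in wild type sham hearts. Its averaged change was -0.47 (SE 0.10, adjusted p = 0.00362) with no overlap in either genotype. Pdk1 held 194, 154, 158.5 and 145 CPM in knockout TAC hearts, against 219.7 and 195 CPM in knockout sham hearts, and 169 to 183 CPM (median 177) in wild type TAC hearts, against 219.7 and 218 CPM in wild type sham hearts. All TAC libraries were below the sham libraries of their genotype here too, by a narrow margin in the knockout. The Pdk1 change was -0.33 (SE 0.07, adjusted p = 0.00547), and the calls of Pdha1 and Pdk1 were lost without knockout sham replicate 1 (-0.31 and -0.28). Mpc1 and Mpc2, the subunits of the mitochondrial pyruvate carrier, changed by -0.07 (SE 0.07) and -0.09 (SE 0.12) and did not pass.

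Of the 5 glycogen genes, only the muscle phosphorylase passed, as lower, while 11.6% of all genes were called lower. Pygm, which frees glucose units from glycogen, held 1147, 966, 1009 and 973 CPM in knockout TAC hearts, against 1383 and 1262 CPM in knockout sham hearts. Wild type TAC hearts held 794 to 1105 CPM (median 958), against 1249 and 1266 CPM in wild type sham hearts. All TAC libraries were lower than the sham libraries of their genotype, and the averaged change was -0.38 (SE 0.09, adjusted p = 0.0095), lost without knockout sham replicate 1 (-0.35). Pygb, the brain phosphorylase, also expressed in heart, changed by -0.28 (SE 0.12, adjusted p = 0.101), and Gys1, muscle glycogen synthase, by -0.27 (SE 0.14, adjusted p = 0.171). Gbe1, the branching enzyme, changed by -0.17 (SE 0.11) and Ugp2, which makes UDP-glucose, by 0.05 (SE 0.09), and neither passed.

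**Figure D2:**
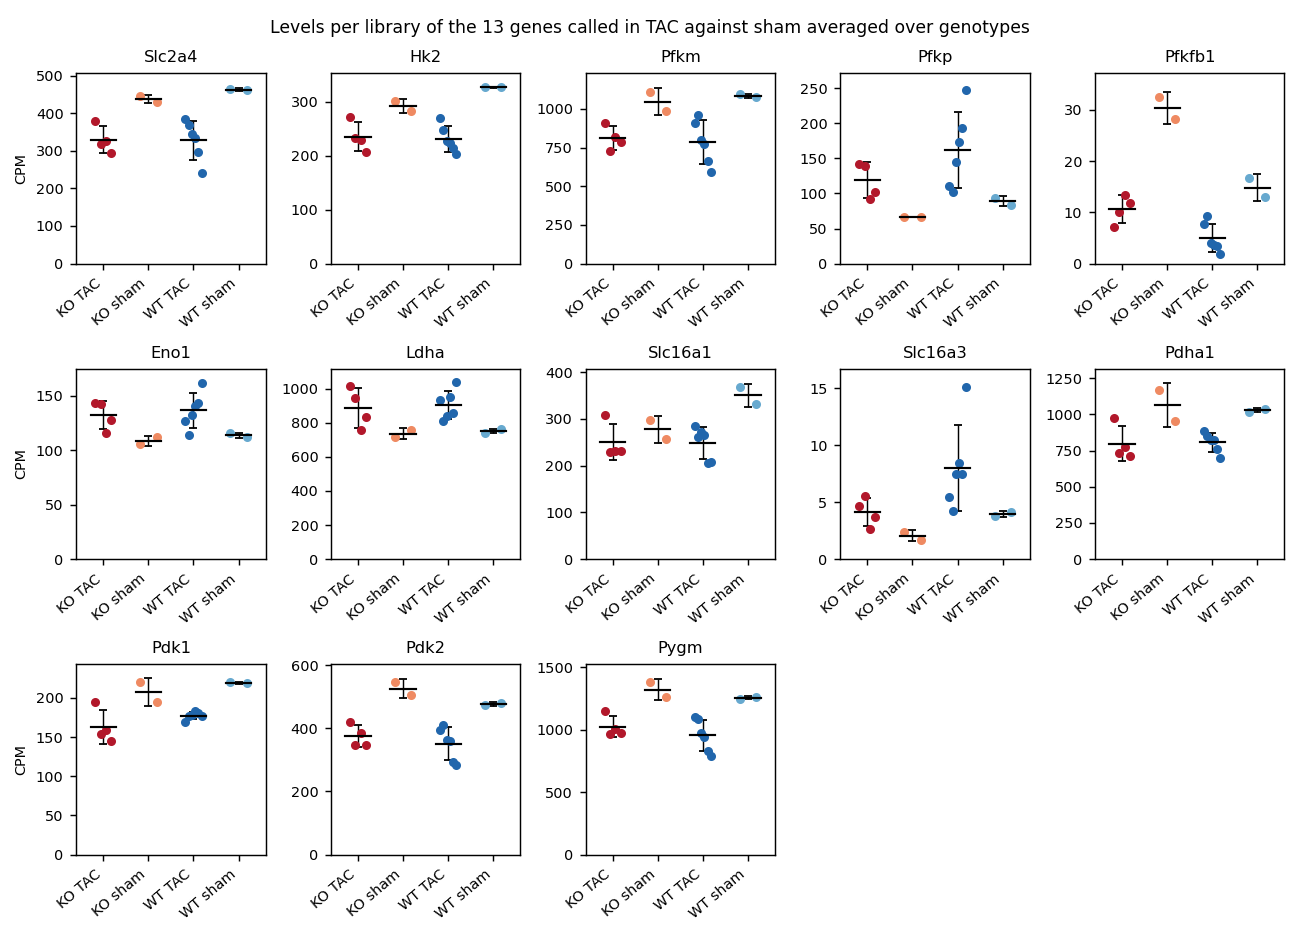
Levels in CPM (vertical axes, starting at 0) of the 13 genes that passed in TAC against sham averaged over genotypes, 1 point per library, with the group mean (line) and SD (bars). Pdk2 and Pfkm lie lower in all TAC libraries than in the sham libraries of their genotype, and Pfkp lies higher, up to 247 CPM in wild type TAC hearts.

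Isoform balance was measured within each library as the log2 ratio of 2 genes of a family, on the log2(CPM + 0.5) scale, and compared by exact two-sided permutation tests over libraries. Over 12 pairs and 5 comparisons there were 60 tests, none of which passed after Benjamini-Hochberg adjustment (lowest adjusted p = 0.071). Those of TAC in the knockout and of genotype after sham could not pass, though they are among the 60. The smallest exact permutation p they allow is 0.067 and 0.33. Averaged over genotypes, 8 pairs had an exact p under 0.05, and the smallest p the design allows is 0.0024. Among single genes, 38.0% had an unadjusted p under 0.05 in this comparison by a different test (edgeR). The ratios use the same libraries and genes as the tests above, and Pfkp/Pfkm and Pfkl/Pfkm share Pfkm. They are therefore not separate support for those calls. The Hk1/Hk2 ratio was 0.19, 0.16, -0.15 and 0.10 in knockout TAC hearts, against -0.20 and -0.36 in knockout sham hearts. In wild type TAC hearts it was -0.15 to 0.83 (median 0.33), against -0.36 and -0.38 in wild type sham hearts. Both genotypes were separate without overlap, and the averaged difference was 0.51 (exact permutation p = 0.0024, adjusted p = 0.071).

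The phosphofructokinase ratios differed in the same sense, with less of the muscle form relative to the others. Pfkp/Pfkm was -2.67, -2.39, -3.16 and -2.95 in knockout TAC hearts, against -4.05 and -3.88 in knockout sham hearts. In wild type TAC hearts it was -3.23 to -1.26 (median -2.31), against -3.53 and -3.67 in wild type sham hearts. TAC and sham libraries did not overlap, and the averaged difference was 1.23 (exact permutation p = 0.0048, adjusted p = 0.071), a ratio 2.34 times that of sham hearts. Pfkl/Pfkm differed by 0.52 (exact permutation p = 0.0095, adjusted p = 0.071). The level of Pfkm nonetheless remained far above the other forms per kb, at 87.1% ± 1.77 of the summed phosphofructokinase level in knockout TAC hearts (SD, n = 4), 91.2% ± 0.648 in knockout sham hearts (n = 2), 83.9% ± 4.71 in wild type TAC hearts (n = 6) and 90.02% ± 0.047 in wild type sham hearts (n = 2).

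For lactate, Ldha/Ldhb was -0.84, -0.74, -1.30 and -1.04 in knockout TAC hearts, against -1.43 and -1.51 in knockout sham hearts. It was -0.97 to -0.24 (median -0.61) in wild type TAC hearts, against -1.15 and -1.14 in wild type sham hearts. Every TAC ratio was higher than the sham ratios of its genotype, by 0.51 on average (exact permutation p = 0.0071, adjusted p = 0.071). Ldha made up 19.5% ± 2.65 of the summed Ldha and Ldhb level per kb in knockout TAC hearts, 14.6% ± 0.474 in knockout sham hearts, 23.7% ± 3.34 in wild type TAC hearts and 17.6% ± 0.101 in wild type sham hearts (SD, n as above). Slc16a3/Slc16a1 differed by 1.16 (exact permutation p = 0.0048, adjusted p = 0.071), yet Slc16a3 stayed under 6% of the pair per kb in every library (5.72% at most). Eno1/Eno3 differed by 0.47 (exact permutation p = 0.019, adjusted p = 0.13) and Slc2a1/Slc2a4 by 0.77 (exact permutation p = 0.021, adjusted p = 0.13). Pfkfb1/Pfkfb2 moved the other way, by -0.87 (exact permutation p = 0.0071, adjusted p = 0.071). The balance of Pgam1/Pgam2, Pdk1/Pdk2, Pygb/Pygm and Mpc1/Mpc2 differed by 0.10, 0.15, 0.10 and 0.03 between TAC and sham hearts, with exact permutation p-values of 0.61, 0.12, 0.30 and 0.72. Without the library labelled WT TAC replicate 1, the same 8 pairs had an exact p under 0.05 and 0 passed after adjustment (lowest adjusted p = 0.063). Their differences were then 0.55 for Hk1/Hk2, 1.30 for Pfkp/Pfkm, 0.55 for Pfkl/Pfkm, 0.53 for Ldha/Ldhb, 1.22 for Slc16a3/Slc16a1, 0.51 for Eno1/Eno3, 0.83 for Slc2a1/Slc2a4 and -0.90 for Pfkfb1/Pfkfb2, and the wild type TAC shares 83.1% ± 4.78 for Pfkm and 24.2% ± 3.49 for Ldha (SD, n = 5). Without wild type TAC replicate 2, 4 of the pairs passed after adjustment, and without wild type sham replicates 1 or 2 the number with an exact p under 0.05 was 7 or 6 in place of 8.

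**Figure D3:**
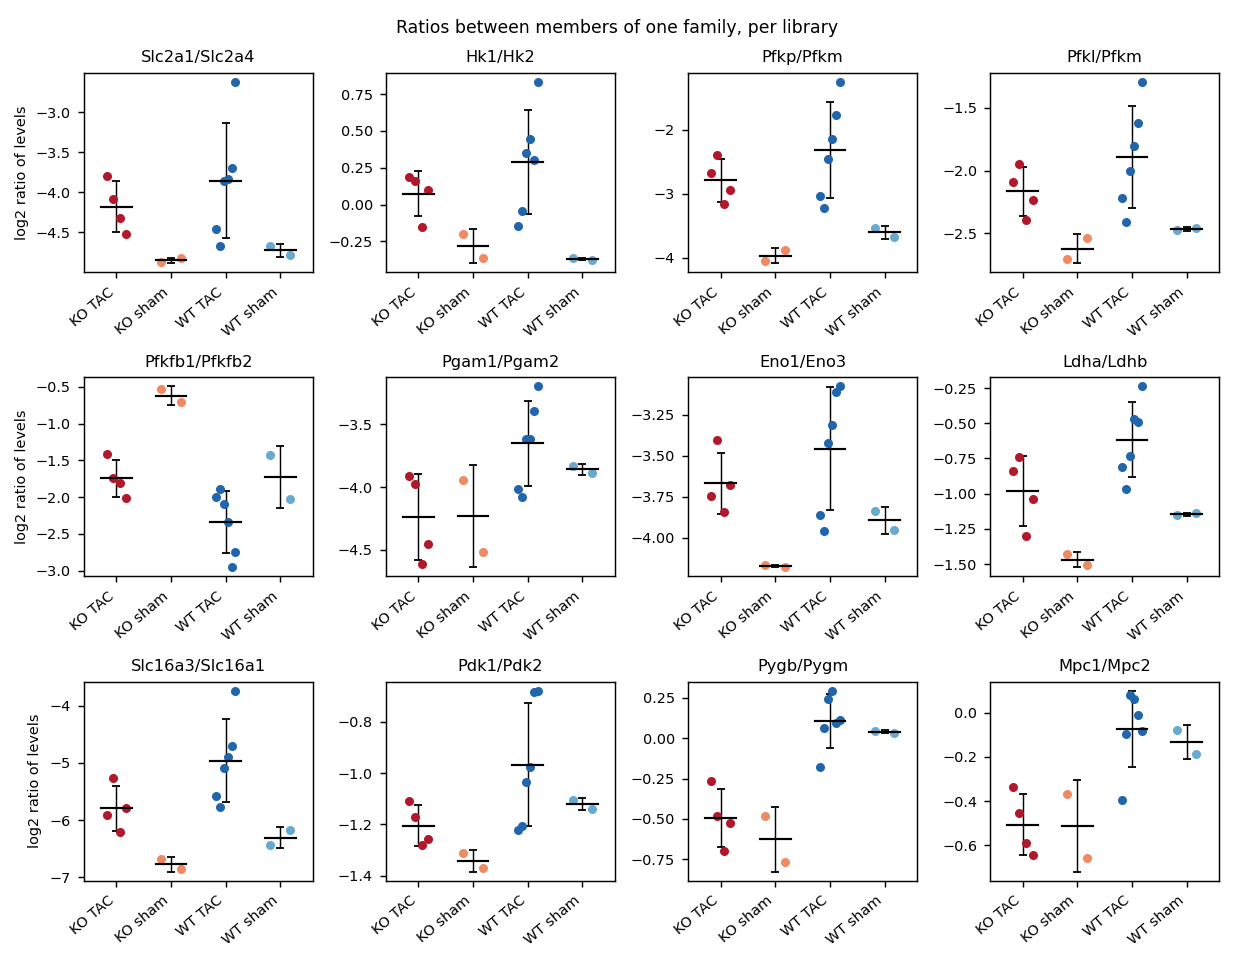
Log2 ratio of 2 genes of a family (vertical axes, ratio of CPM + 0.5) in each library, with the group mean (line) and SD (bars). In Hk1/Hk2, Pfkp/Pfkm and Ldha/Ldhb every TAC library lies above the sham libraries of its genotype. The sham libraries of the 2 genotypes do not overlap in any pair but Hk1/Hk2.

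Some libraries were extreme for many of the 33 genes at once. Knockout TAC replicate 1 had the highest level of its group for 26 of the 33 genes, and wild type TAC replicate 7 was the highest of its group for 16 and the lowest for 10. Marker lists of cell types moved with TAC as well. The summed level of 8 cardiomyocyte genes was 56760 to 66960 CPM in knockout TAC hearts, against 69150 and 70530 CPM in knockout sham hearts, and 46220 to 61360 CPM in wild type TAC hearts, against 62020 and 63360 CPM in wild type sham hearts. Of these 8 genes 3 fell and 1 rose in the averaged comparison, with a median log2 fold change of -0.16 and the lowest at -0.51. The median over all 33 genes was -0.07. The 9 members that fell, a set selected by their calls, were at -0.32 to -1.55. The 7 fibroblast genes summed to 1871 to 3238 CPM in knockout TAC hearts, against 1444 and 1561 CPM in knockout sham hearts, and to 2666 to 8560 CPM in wild type TAC hearts, against 1714 and 1899 CPM in wild type sham hearts, with 4 of 7 higher after TAC and 0 lower. Of the 7 macrophage genes 6 rose. Their sums were 238.7 to 318.3 CPM in knockout TAC hearts, against 219 and 224 CPM in knockout sham hearts. In wild type TAC hearts they were 285.3 to 496.4 CPM, against 232.2 and 248.8 CPM in wild type sham hearts. These fibroblast and macrophage counts are from the averaged comparison, where 12.7% of all genes were called higher. In the knockout alone 0 of 7 fibroblast and 0 of 7 macrophage genes were called, where 2.36% of all genes were called higher. In wild type alone 5 of 7 and 7 of 7 were called higher, where 6.36% of all genes were.

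Genes of dividing cells rose in 7 of 7 cases, to sums of 79.85 to 154 CPM in knockout TAC hearts, against 17.6 and 19.1 CPM in knockout sham hearts, and 34.1 to 80.4 CPM in wild type TAC hearts, against 12.8 and 14.7 CPM in wild type sham hearts. Immediate early genes, which respond to many stimuli including tissue handling, rose in 7 of 8 cases, to 214.5 to 266.6 CPM in knockout TAC hearts, against 98.18 and 99.15 CPM in knockout sham hearts, and 131 to 206.7 CPM in wild type TAC hearts, against 115.9 and 116.2 CPM in wild type sham hearts. Taken by genotype, 6 of 8 immediate early genes were called higher in the knockout and 1 of 8 in wild type. Genes of dividing cells were called in 7 of 7 cases in each genotype. All other counts of calls in this paragraph are from the averaged comparison. Endothelial and neutrophil genes had 0 calls of 6 and of 5. Red cell genes had 0 of 5, at sums of 174 to 913 CPM over the TAC libraries, against 117 to 253 CPM over the sham libraries. Of the smooth muscle and pericyte genes, 1 of 5 rose. Fast skeletal muscle genes summed to 2.13 to 13.7 CPM over all libraries, with Myh1, Myh2 and Myh4 at 0 counts in several libraries, and adipocyte genes to at most 1.28 CPM, with Lep, Plin1, Cidec and Adipoq at 0 counts in some. Mitochondrially encoded genes took 14.9% to 19.2% of counts in knockout TAC hearts, against 20.5% and 23.7% in knockout sham hearts, and 10.1% to 17.1% in wild type TAC hearts, against 18.5% and 18.8% in wild type sham hearts; leaving these genes out gave the same 13 calls. Without the library labelled WT TAC replicate 1, the wild type TAC sums were 46220 to 60420 CPM for cardiomyocyte, 2882 to 8560 CPM for fibroblast, 355.6 to 496.4 CPM for macrophage and 34.1 to 74.3 CPM for dividing-cell genes, with the range of the immediate early genes unchanged. The part of the cell-type lists in the results on the 33 genes was not tested.

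**Figure D4:**
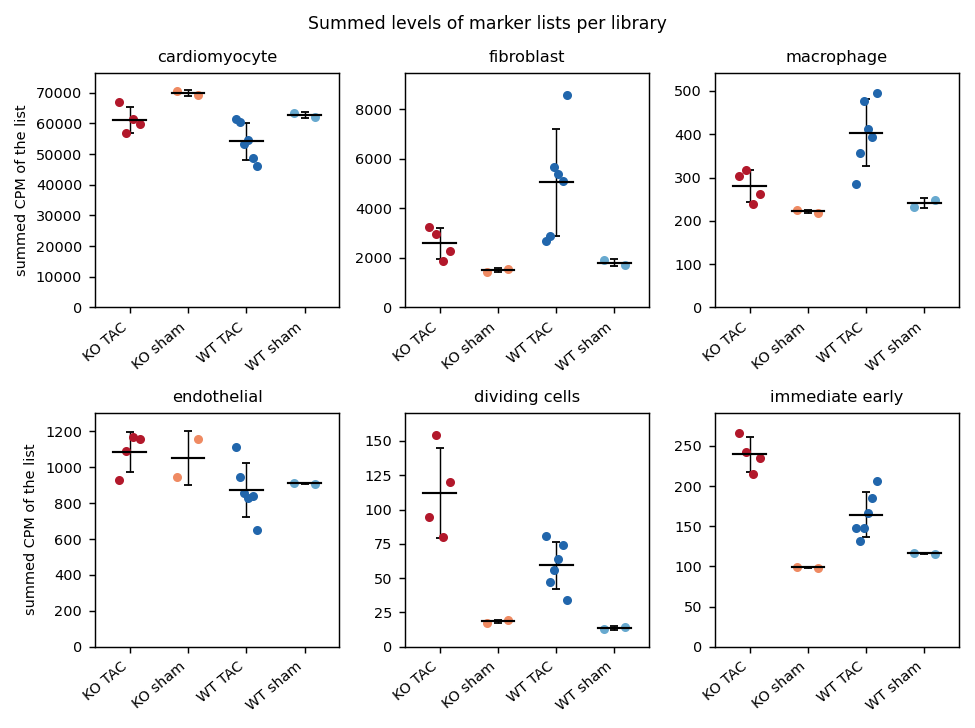
Summed CPM of marker lists (vertical axes, starting at 0), 1 point per library, with the group mean (line) and SD (bars). Cardiomyocyte sums are lower and fibroblast, macrophage, dividing-cell and immediate early sums higher in TAC hearts, with the highest fibroblast sum, 8560 CPM, in a wild type TAC heart.

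Between the genotypes after TAC, 2 of the 33 genes were higher in the knockout and 1 was lower, while over all genes 3.71% were called higher and 5.63% lower. The 3 calls are 9.09% of the 33 genes and 9.34% of all genes were called in either direction, so the share was near that of all genes. This comparison uses the same TAC libraries as those above. Mpc2 (chromosome 1, 165460637 to 165481214, GRCm38, plus strand), a subunit of the carrier that brings pyruvate into mitochondria, held 235, 219.8, 262 and 264 CPM in knockout TAC hearts, against 143 to 243 CPM (median 164) in wild type TAC hearts. The highest of these wild type values, 243 CPM, was that of the library labelled WT TAC replicate 1, and the other 5 held 143 to 187 CPM, below all knockout TAC hearts. The log2 fold change was 0.48 (SE 0.13, adjusted p = 0.0321), and 0.59 (SE 0.10, adjusted p = 0.00105) without that library. After sham surgery Mpc2 held 235 and 299 CPM in the knockout, against 178 and 189.7 CPM in wild type, a difference of 0.54 (SE 0.20) that did not pass (adjusted p = 0.321).

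Pgam2 (chromosome 11, 5801640 to 5803733, GRCm38, minus strand), the muscle phosphoglycerate mutase, held 942, 873, 975 and 936 CPM in knockout TAC hearts, against 598 to 925 CPM (median 653) in wild type TAC hearts. Again the library labelled WT TAC replicate 1 was the highest of its group, and the other 5 held 598 to 762 CPM. The difference was 0.40 (SE 0.12, adjusted p = 0.043), and 0.49 (SE 0.09, adjusted p = 0.00276) without that library. In sham hearts Pgam2 held 740.4 and 960.1 CPM in the knockout, against 707 and 736 CPM in wild type (0.24, SE 0.18, adjusted p = 0.671). Pygb (chromosome 2, 150786735 to 150831758, GRCm38, plus strand) held 955, 692, 621 and 677 CPM in knockout TAC hearts, against 859 to 1156 CPM (median 1054) in wild type TAC hearts. Knockout TAC replicate 1 alone overlapped the wild type range, and the difference was -0.48 (SE 0.14, adjusted p = 0.0391), or -0.49 (SE 0.14, adjusted p = 0.0242) without the library labelled WT TAC replicate 1. In sham hearts Pygb held 989 and 742 CPM in the knockout, against 1289 and 1295 CPM in wild type, a difference of -0.58 (SE 0.21, adjusted p = 0.309).

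A further 3 genes narrowly missed the threshold and passed without the library labelled WT TAC replicate 1, as they did without wild type TAC replicate 2. Ldhb was 0.32 higher in the knockout after TAC (SE 0.10, adjusted p = 0.0612), and 0.37 higher without that library (SE 0.10, adjusted p = 0.016). Pfkfb1 was at 1.10 (SE 0.36, adjusted p = 0.0703), and at 1.25 (SE 0.36, adjusted p = 0.0373) without it. Slc16a3 was at -0.96 (SE 0.31, adjusted p = 0.0628), and at -1.05 (SE 0.31, adjusted p = 0.036) without it. The 6 calls without that library are 18.2% of the 33 genes, where 18.5% of all genes were called, so the share was again near that of all genes. Fibroblast sums were 1871 to 3238 CPM in knockout TAC hearts, against 2666 to 8560 CPM in wild type TAC hearts, and cardiomyocyte sums were 56760 to 66960 CPM in knockout TAC hearts, against 46220 to 61360 CPM in wild type TAC hearts. Sums of dividing-cell genes were 79.85 to 154 CPM in knockout TAC hearts, against 34.1 to 80.4 CPM in wild type TAC hearts, and those of immediate early genes did not overlap, at 214.5 to 266.6 CPM in knockout TAC hearts, against 131 to 206.7 CPM in wild type TAC hearts. The part of these lists in the genotype differences was not tested. The number called was 0 without knockout TAC replicates 4 or 5 or wild type TAC replicates 3 or 4, and 1 without knockout TAC replicate 2, wild type TAC replicate 6 or either wild type sham library. The share of all genes called was 1.9% to 4.22% in the fits with 0 and 3.83% to 6.13% in those with 1. The number was 5 without wild type TAC replicate 2, where 10.2% of all genes were called. When only the TAC groups were fitted, 0 of the 3 passed and 5.18% of all genes were called.

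After sham surgery, 0 of the 33 genes differed between the genotypes by edgeR, which called 0.0378% of all genes higher and 0.0882% lower, and 2 of the 33 had an unadjusted p under 0.05, as 11.3% of all genes did. DESeq2 called 0 of the 33 and 0.926% of all genes, and limma voom called 3 of the 33 and 4.44% of all genes. For Pfkfb1 the sham hearts held 32.55 and 28.2 CPM in the knockout, against 16.6 and 12.98 CPM in wild type, a difference of 1.03 (SE 0.53, adjusted p = 0.491). Slc16a3 differed by -0.93 (SE 0.52, adjusted p = 0.529). Among isoform ratios, the glycogen phosphorylases had the smallest p between the genotypes after TAC. Pygb/Pygm was -0.26, -0.48, -0.70 and -0.52 in knockout TAC hearts, against -0.18 to 0.29 (median 0.10) in wild type TAC hearts. The groups did not overlap, and the difference was -0.60 (exact permutation p = 0.0048, the smallest this design allows, adjusted p = 0.071). Mpc1/Mpc2 was -0.34, -0.46, -0.59 and -0.65 in knockout TAC hearts, against -0.40 to 0.08 (median -0.05) in wild type TAC hearts (difference -0.43, exact permutation p = 0.0095, adjusted p = 0.071). The only wild type TAC value within the knockout range, -0.40, was that of the library labelled WT TAC replicate 1. Without it the wild type TAC ratios were 0.06 to 0.29 for Pygb/Pygm and -0.10 to 0.08 for Mpc1/Mpc2, the groups were separate for both, and the differences were -0.65 and -0.50 (exact permutation p = 0.0079 for each, the smallest possible, adjusted p = 0.071). In sham hearts the same ratios were -0.48 and -0.77 in the knockout, against 0.05 and 0.03 in wild type, for Pygb/Pygm, and -0.37 and -0.66 in the knockout, against -0.08 and -0.19 in wild type, for Mpc1/Mpc2. The sham ranges were separate for both, but with 2 libraries a group the smallest p an exact permutation test can give is 0.33. Separate sham ranges were not particular to these ratios, since every pair but Hk1/Hk2 had them.

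**Figure D5:**
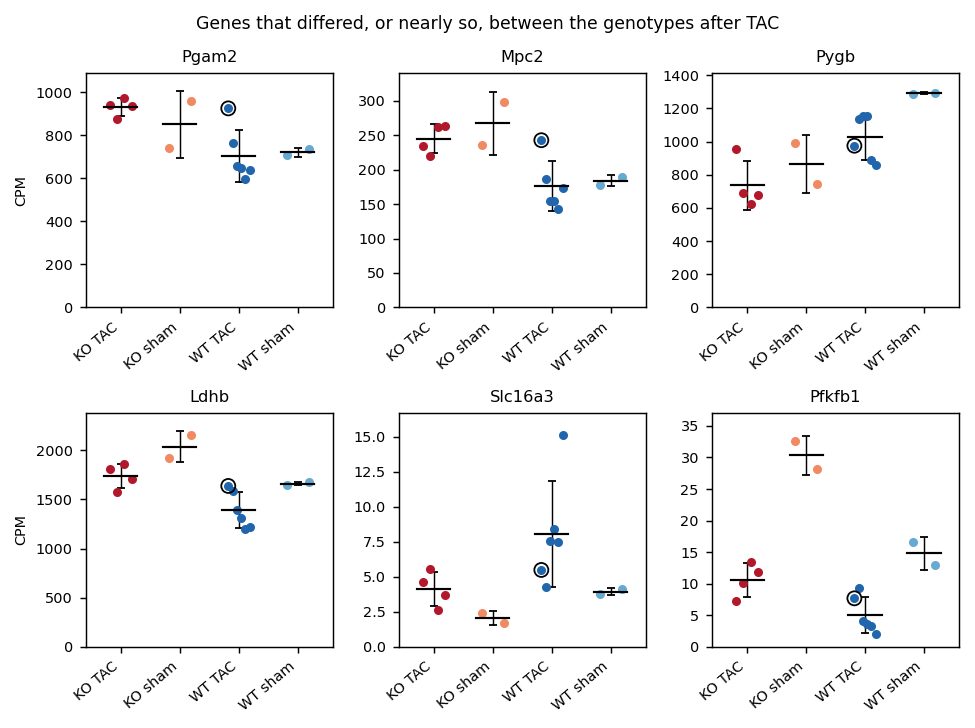
Levels in CPM (vertical axes, starting at 0) of the 3 genes that differed between the genotypes after TAC and of 3 that did so without the library labelled WT TAC replicate 1 (circled point), 1 point per library, with the group mean (line) and SD (bars). For Mpc2 and Pgam2 the circled point, at 243 and 925 CPM, is the only wild type TAC value at the level of the knockout TAC hearts.

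Other genes of the pathway were read from lists and described over both genotypes together. Of 6 further glucose carriers, 1 rose and 1 fell: Slc2a12, which encodes GLUT12, by -0.86 (SE 0.18, adjusted p = 0.00338), and Slc2a10, by 0.47 (SE 0.15, adjusted p = 0.0293). Of 10 genes of the pyruvate dehydrogenase complex and its regulators, 6 fell and 0 rose, with a median of -0.30. They included Pdp2, a catalytic subunit of the phosphatase that switches the complex on, at -0.96 (SE 0.17, adjusted p = 0.00196), and Pdpr, the regulatory subunit of that phosphatase, at -1.09 (SE 0.19, adjusted p = 0.00207). Pcx, pyruvate carboxylase, was at -0.37 (SE 0.09, adjusted p = 0.00652) and Dld, the dihydrolipoamide dehydrogenase, at -0.42 (SE 0.11, adjusted p = 0.0109). Of 23 genes of glycogen handling, 9 fell and 2 rose, with a median of -0.17. Among those that fell were Ppp1r3d, a subunit that directs protein phosphatase 1 to glycogen (-0.48, SE 0.08, adjusted p = 8e-04), Phkb, a subunit of the kinase that activates phosphorylase (-0.40, SE 0.07, adjusted p = 0.00153), and Nhlrc1, the ubiquitin ligase malin (-0.49, SE 0.11, adjusted p = 0.00472).

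Of 13 other glycolytic isoenzymes 3 fell and 0 rose. Among them were Ldhd, the D-lactate dehydrogenase, at -0.70 (SE 0.11, adjusted p = 0.000924), and Slc16a7, the carrier MCT2, at -0.69 (SE 0.12, adjusted p = 0.00123). Of 10 genes of the shuttles that carry reducing equivalents into mitochondria, 5 fell and 0 rose (median -0.31), led by Gpd1l at -0.52 (SE 0.10, adjusted p = 0.00221) and Got1, the cytosolic aspartate aminotransferase, at -0.43 (SE 0.10, adjusted p = 0.00687). Of 17 genes of the pentose phosphate, polyol and hexosamine branches, 2 fell (Sord, sorbitol dehydrogenase, at -0.56, SE 0.14, adjusted p = 0.00972, and Ogt at -0.46, SE 0.15, adjusted p = 0.0411) and 1 rose (Pgls, at 0.37, SE 0.11, adjusted p = 0.0204). Of 27 regulators of glucose genes, 15 were lower and 0 higher (median -0.25). Ppara, a nuclear receptor of fuel use, fell by 1.32 (SE 0.18, adjusted p = 0.000429), Ppargc1a, the coactivator PGC-1alpha, by 0.86 (SE 0.11, adjusted p = 0.000271), Klf15, a transcription factor of fuel metabolism, by 0.68 (SE 0.10, adjusted p = 0.000429), and Tbc1d4, a regulator of GLUT4 traffic, by 0.69 (SE 0.11, adjusted p = 0.000662). Between the genotypes after TAC, 2 of the 106 genes tested on these lists were higher in the knockout (1.89%, where 3.71% of all genes were). A further 7 were lower (6.6%, where 5.63% of all genes were). These pooled shares were near those of all genes. Both higher genes were on the pyruvate dehydrogenase list (20% of its 10 genes), with 0 lower. On that list 8 genes had an unadjusted p under 0.05 (edgeR), against 28.8% of all genes, and 6 of its 10 changes were positive and 4 negative. The averaged comparison held 45 calls over these lists, with 41 of 106 genes lower (38.7%) and 4 higher (3.77%), where 11.6% of all genes were called lower and 12.7% higher, and the number was 22 without knockout sham replicate 1, 29 without wild type sham replicate 1 and 27 without wild type sham replicate 2. These lists too were chosen with earlier results of these data known, so their shares are not a test of the pathway.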

How the data were processed

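RNA-seq with poly(A) selection was done on 14 mouse ventricle samples. The authors deposited raw counts, as whole reads per gene. Per the submitters' processing notes, FastQC, HISAT2 2.1.0, featureCounts and edgeR were used with GRCm38; for strand, annotation and reads that fit several places, settings were not given in the sources used here.

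The members and the gene lists were chosen with earlier results of these data known. The deposited counts were filtered with filterByExpr (15876 of 54532 genes kept), scaled by TMM and tested with the quasi-likelihood test of edgeR 4.0.16 in R 4.3.3, in 1 model of 4 group means over all 14 libraries, with Benjamini-Hochberg adjustment over all genes tested and a threshold of 0.05. A standard error was the size of the log2 fold change divided by the square root of its F value. Contrasts were TAC against sham in each genotype and on average, knockout against wild type after TAC and after sham, and the interaction. Levels are CPM on the scaled library sizes, and per-kb levels use the summed exon length of GENCODE M21. Isoform ratios were tested by exact two-sided permutation over libraries, within genotype for the average, with a pseudocount of 0.5 CPM. Scripts were tested on simulated data.

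Values per library are given for members called in any comparison and for isoform pairs, and up to 4 genes of each wider list were named, those with the smallest p in the averaged comparison. Some genes that this rule names are not reported here. Alternatives were RLE scaling, no filter, DESeq2 1.42.0, limma 3.58.1 voom with sample weights, the 2 groups alone, mitochondrial genes left out, copies added, a replicate block and each library left out. Isoform pairs, family shares and marker sums without the library labelled WT TAC replicate 1 were added after seeing the data. Same-numbered libraries did not deviate together, but with 2 sham libraries in each genotype this check cannot exclude a pairing. No 2 libraries of a group agreed within sampling noise. A count of 3 corresponds to 0.0898 to 0.172 CPM, for counting error only.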

Additional observations from a re-analysis of the deposited data

Results flagged for a closer look

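In the TAC groups of 4 and 6 libraries, 90 sets of values (levels and isoform ratios) were checked for 1 library far from the others, a check that chance alone meets in about 1 of 20 sets, and 6 stood out. Wild type TAC replicate 7 was above the other 5 libraries of its group for Gpi1, glucose phosphate isomerase, at 1083 CPM against 789.7 to 897.7 CPM. It was also highest for Gapdh, at 108.8 CPM against 75.8 to 81.52 CPM, and for Gys1, glycogen synthase, at 125.6 CPM against 95.85 to 103.0 CPM. Knockout TAC replicate 1 was above the other 3 libraries of its group for Slc16a1, the lactate carrier MCT1, at 308.5 CPM against 229.6 to 232.0 CPM, and for Ugp2, which makes UDP-glucose, at 419.9 CPM against 304.7 to 320.2 CPM. The log2 ratio of Mpc1 to Mpc2 was -0.397 in the library labelled WT TAC replicate 1, against -0.0948 to 0.0812 in the other 5 wild type TAC libraries. That library is the one in which Ccl24 had 3 counts.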

How the results depend on the processing

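The number of the 33 genes called was 0 in the knockout, 5 in wild type, 13 on average and 3 between the genotypes after TAC. The shares of all genes called were 4.08%, 12.2%, 24.2% and 9.34%. With DESeq2 the numbers were 5, 12, 15 and 6 (8.45%, 17.7%, 27.6% and 14.8% of all genes), and with limma voom and sample weights 9, 19, 18 and 12 (12%, 36.1%, 37.7% and 28.9%). When the 2 groups of a comparison were fitted alone they were 3 in the knockout, 1 in wild type and 0 between the genotypes after TAC (9.51%, 4.74% and 5.18% of all genes); the average and the interaction could not be fitted this way. Between the genotypes after sham, 0 (0.126% of all genes) became 3 with limma voom (4.44%) and 5 with the 2 groups alone (7.85%). Leaving out each library gave 0 to 4 calls in the knockout, 0 to 11 in wild type, 4 to 15 on average, 0 to 6 between the genotypes after TAC, 0 after sham and 0 for the interaction, and 22 to 54 calls over the wider lists in place of 45. Same-numbered libraries did not deviate together (correlations of -0.215 to 0.06 over 13 pairs). In a group of 2 libraries the deviations mirror each other, so this check cannot exclude a pairing. With a replicate block in edgeR, 0 genes were called in wild type, 1 (Pdk2, -0.35, adjusted p = 0.0458) on average, 0 between the genotypes after TAC and 22 in the wider lists. The shares of all genes called in these 3 comparisons were 0.139%, 9.31% and 0.283%. Wild type TAC replicates 3, 6 and 7 and knockout TAC replicate 5 have numbers that no other library shares. The block takes up such libraries whole, so these comparisons rested on fewer libraries, the one labelled WT TAC replicate 1 among them. For the genes called, 449 values were computed under alternatives, of which 106 no longer passed and 0 were reversed; the cause was not tested. The 2 sham libraries of each genotype limit every comparison with sham.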
